A study of Mus musculus with 96 samples.

Results

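Bone marrow-derived macrophages were given 1 of 2 compounds that disturb the endoplasmic reticulum (ER), then lipopolysaccharide (LPS), the bacterial cell wall component that Toll-like receptor signalling responds to. The libraries compared are the 8 labelled Tunicamycin and the 8 labelled BrefA, taken here as brefeldin A. The libraries were taken by those labels, 16 of 96 in all. Which groups to compare, and the gene lists used below, were chosen with earlier results of these data known. Both groups came from macrophages of male C57BL/6 mice aged 8 weeks, matured in conditioned medium with MCSF. They were exposed to the compound for 30 min before LPS and lysed 4 h after it. Each group filled wells E to H on 2 plates, 4 wells a plate. The vehicle group, DMSO with LPS, had the same 8 wells and serves as the common baseline, so the comparisons of each compound with DMSO share those libraries. Unstimulated cells (NoStim, 8 libraries) got no LPS and are set beside these groups where named. The labels state no dose, no compound was given without LPS, and the labels do not say from how many animals the wells came. If wells share animals, p-values measure the spread between wells. That spread was estimated for each gene over all groups of the series together, not over the compared groups alone. Transcript 3′ ends were counted per gene symbol, and levels are given as CPM, a gene's counts per 1e+06 counts of the library, with library sizes scaled by TMM.

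Tunicamycin blocks the first step of N-linked glycosylation, in which a sugar is placed on the lipid carrier dolichol phosphate, and glycoproteins then fail to fold in the ER. Brefeldin A blocks the exchange factors of the small GTPase ARF, so COPI coats leave the Golgi and its enzymes flow back into the ER. Unfolded proteins in the ER are sensed by IRE1, PERK and ATF6. These raise, through XBP1, ATF4 and cleaved ATF6, the chaperones, degradation factors and amino acid genes known as the unfolded protein response. PERK also lowers protein synthesis in general. In macrophages LPS raises inflammatory cytokines directly and interferon-stimulated genes through secreted interferon beta.

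Promoters of 6 genes of these pathways are shown because they hold letters of the elements that the 3 sensors are known to act through. They are RefSeq promoter windows of build GRCm38.p6, from 250 bases before to 50 bases after the annotated start, written 5′ to 3′ on the gene's strand, with matches in capitals. The ER stress element (CCAAT, any 9 bases, CCACG, on either strand) is known as a binding site of cleaved ATF6 with NF-Y. The XBP1 element searched was TGACGTGG and the composite element of ATF4 and C/EBP factors was TGATGNAAN, both on either strand. 48 of the 66 named genes of these lists had a window. These genes were partly named because they passed the test, so their matches are given as a description. 5 of them held the ER stress element in a window, against 0.137% of 27025 mouse genes with windows of the same length, 3 held the XBP1 element, against 0.714%, and 5 held the composite element, against 4.5%. A match is a description of the letters and was not tested as a binding site.
Hspa5 (chr2:34771840-34772139, plus strand; ER stress element starting 65 bases before the start): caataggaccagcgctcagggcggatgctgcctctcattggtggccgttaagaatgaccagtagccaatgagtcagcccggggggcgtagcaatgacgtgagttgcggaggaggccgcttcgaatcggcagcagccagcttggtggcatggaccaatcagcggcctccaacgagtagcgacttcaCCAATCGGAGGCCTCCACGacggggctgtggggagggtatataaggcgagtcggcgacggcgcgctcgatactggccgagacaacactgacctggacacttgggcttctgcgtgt
Hsp90b1 (chr10:86705395-86705694, minus strand; 2 ER stress elements): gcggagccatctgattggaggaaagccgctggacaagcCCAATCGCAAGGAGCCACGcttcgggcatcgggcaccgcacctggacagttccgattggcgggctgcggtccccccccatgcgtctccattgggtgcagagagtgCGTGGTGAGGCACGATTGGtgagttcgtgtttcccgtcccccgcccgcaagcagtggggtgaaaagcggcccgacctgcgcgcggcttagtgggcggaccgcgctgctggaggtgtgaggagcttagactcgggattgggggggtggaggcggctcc
Dnajc3 (chr14:118937682-118937981, plus strand; ER stress element starting 105 bases before the start): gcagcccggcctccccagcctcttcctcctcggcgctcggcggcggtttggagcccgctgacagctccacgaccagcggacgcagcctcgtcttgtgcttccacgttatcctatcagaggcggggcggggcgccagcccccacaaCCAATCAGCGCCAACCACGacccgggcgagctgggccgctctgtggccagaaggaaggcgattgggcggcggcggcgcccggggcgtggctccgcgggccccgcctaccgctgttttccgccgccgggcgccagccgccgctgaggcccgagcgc
Copb2 (chr9:98563481-98563780, plus strand; XBP1 element starting 7 bases before the start): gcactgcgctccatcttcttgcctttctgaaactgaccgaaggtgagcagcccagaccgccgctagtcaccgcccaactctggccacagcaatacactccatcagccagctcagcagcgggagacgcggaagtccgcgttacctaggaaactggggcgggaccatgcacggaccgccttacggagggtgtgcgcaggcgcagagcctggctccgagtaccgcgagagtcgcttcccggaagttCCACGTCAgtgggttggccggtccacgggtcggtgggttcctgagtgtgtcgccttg
Herpud1 (chr8:94386179-94386478, plus strand; composite element starting 113 bases before the start): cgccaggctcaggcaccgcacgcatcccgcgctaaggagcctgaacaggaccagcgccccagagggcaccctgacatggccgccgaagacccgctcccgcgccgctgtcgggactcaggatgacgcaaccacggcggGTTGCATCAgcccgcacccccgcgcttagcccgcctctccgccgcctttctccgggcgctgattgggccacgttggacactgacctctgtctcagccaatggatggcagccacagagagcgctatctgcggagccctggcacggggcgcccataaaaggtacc
Asns (chr6:7693160-7693459, minus strand; composite element starting 23 bases before the start): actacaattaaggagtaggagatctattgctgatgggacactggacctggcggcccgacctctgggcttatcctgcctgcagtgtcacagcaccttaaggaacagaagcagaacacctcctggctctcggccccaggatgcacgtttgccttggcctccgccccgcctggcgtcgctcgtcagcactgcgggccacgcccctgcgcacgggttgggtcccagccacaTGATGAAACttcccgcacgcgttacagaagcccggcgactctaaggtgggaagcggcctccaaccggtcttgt

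The total count per library was 257166 ± 46800 in Tunicamycin libraries and 252721 ± 41603 in BrefA libraries (SD, n = 8 each; exact permutation p = 0.848, two-sided). Over all 96 libraries it ranged from 80196 to 379198. The ribosomal RNA precursor Rn45s took 16.9% ± 5.25 of counts in Tunicamycin libraries and 20.3% ± 4.50 in BrefA libraries (exact permutation p = 0.187). Macrophage genes were present in all groups: 20 listed markers summed to 7568 to 9989.8 CPM in Tunicamycin libraries, 5498 to 7972 CPM in BrefA libraries and 7349 to 9093 CPM in DMSO libraries. Markers of T and NK cells summed to at most 35.7 CPM in any Tunicamycin library and 16.5 CPM in any BrefA library, with 8 and 9 of 13 at 0. The erythroid and mast cell markers held 12 and 11 of 12 genes at 0. In bulk wells, fewer cells of a kind and less RNA per cell cannot be told apart.

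One library and 1 plate stood apart the most. The library labelled Tunicamycin, plate 2 well F, correlated at -0.017 over 4810 genes with the profile of its own group on the other plate, where the median over 96 libraries was 0.390. Its closest profile was that of unstimulated cells (NoStim, r = 0.241), and its r with the BrefA profile was 0.204. Of the 12 group profiles, that of the own group was the closest for 1 of 8 Tunicamycin libraries, 7 of 8 BrefA libraries and 5 of 8 DMSO libraries. In well F of plate 2 the 51 listed interferon genes summed to 9748 CPM, against 34762 to 46600.2 CPM in the other 7 Tunicamycin libraries. Its listed inflammatory genes, in contrast, summed to 40608.5 CPM. That sum was 44685.7 to 59682.2 CPM in the other 7 and 3800 to 8183 CPM in NoStim libraries. Values without this library are therefore given beside the results that it changes. BrefA plate 2 well H was closer to the Tunicamycin profile (r = 0.366) than to its own (r = 0.296). Tunicamycin plate 1 well H was at r = 0.112 with its own group, where the median of the 8 Tunicamycin libraries was 0.275. Its closest profile was that of the group labelled Caspase-1 (r = 0.219). The Tunicamycin wells also differed between plates: 323 of 4963 genes (6.51%) differed between plate 2 and plate 1 within Tunicamycin, and 243 of 5084 (4.78%) without well F of plate 2, against 5 of 4963 (0.101%) within BrefA and 2 of 4963 (0.0403%) within DMSO. In a fit with a term for each group on each plate, Tunicamycin changed 362 genes on plate 1 against DMSO (7.29%; 192 higher, 170 lower) and 9 on plate 2 (0.181%; 7 higher, 2 lower). Without well F of plate 2 these counts were 399 (7.85%) and 4 (0.0787%). BrefA changed 498 genes on plate 1 (10%) and 503 on plate 2 (10.1%) against DMSO. Plate and any difference in how the Tunicamycin wells of each plate were treated cannot be told apart. Beyond the labels, the files hold no record that compound and LPS reached every Tunicamycin well of plate 2, and this was not tested. Tunicamycin values over both plates therefore hold only as far as those labels do. Within-plate values are given for the genes the results turn on.

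Between the compounds, 493 genes were higher and 347 lower in Tunicamycin than in BrefA, 840 of 4963 genes tested (16.9%; 9.93% higher and 6.99% lower). Among genes with at least 30 mean CPM in the higher group and 1 sign on both plates, the lowest in Tunicamycin were the stress cytokine gene Gdf15, the interleukin subunit gene Il12b and the transcription factor gene Klf9. The highest, predicted genes aside, were the acute phase gene Saa3, the interferon-inducible GTPase gene Iigp1 and the gene of the copper-binding plasma protein ceruloplasmin, Cp. Gdf15 was at 3.96 to 52.9 CPM (median 11.1) in Tunicamycin libraries, against 106 to 222 CPM (median 146) in BrefA libraries and 3.10 to 12.6 CPM (median 9.02) in DMSO libraries. Every BrefA library lay above every Tunicamycin library, as for 1.01% of all tested genes, and the highest Tunicamycin value was that of plate 2 well F. The log2 fold change of Tunicamycin over BrefA was -3.31 ± 0.28 (adjusted p = 2.83e-20), and -3.80 without that library. Saa3 was at 129.8 to 913 CPM (median 455) in Tunicamycin libraries, against 27.5 to 59.3 CPM (median 53.4) in BrefA libraries and 119.9 to 241 CPM (median 163) in DMSO libraries. Here every Tunicamycin library lay above every BrefA library, as for 1.15% of all tested genes, and the difference was 3.31 ± 0.20 (adjusted p = 3.32e-29). Without plate 2 well F, 485 genes were higher and 423 lower of 5084 (17.9%; 9.54% higher). With same-named wells of the 2 plates summed, so that n = 4, 423 were higher and 313 lower of 6947 (10.6%). In a fit with a term for each group on each plate, 554 were higher and 452 lower on plate 1 (20.3%; 11.2% and 9.11%), and 258 higher and 150 lower on plate 2 (8.22%; 5.2% and 3.02%). The median log2 fold change over all tested genes was -0.0038.

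**Figure D1:**
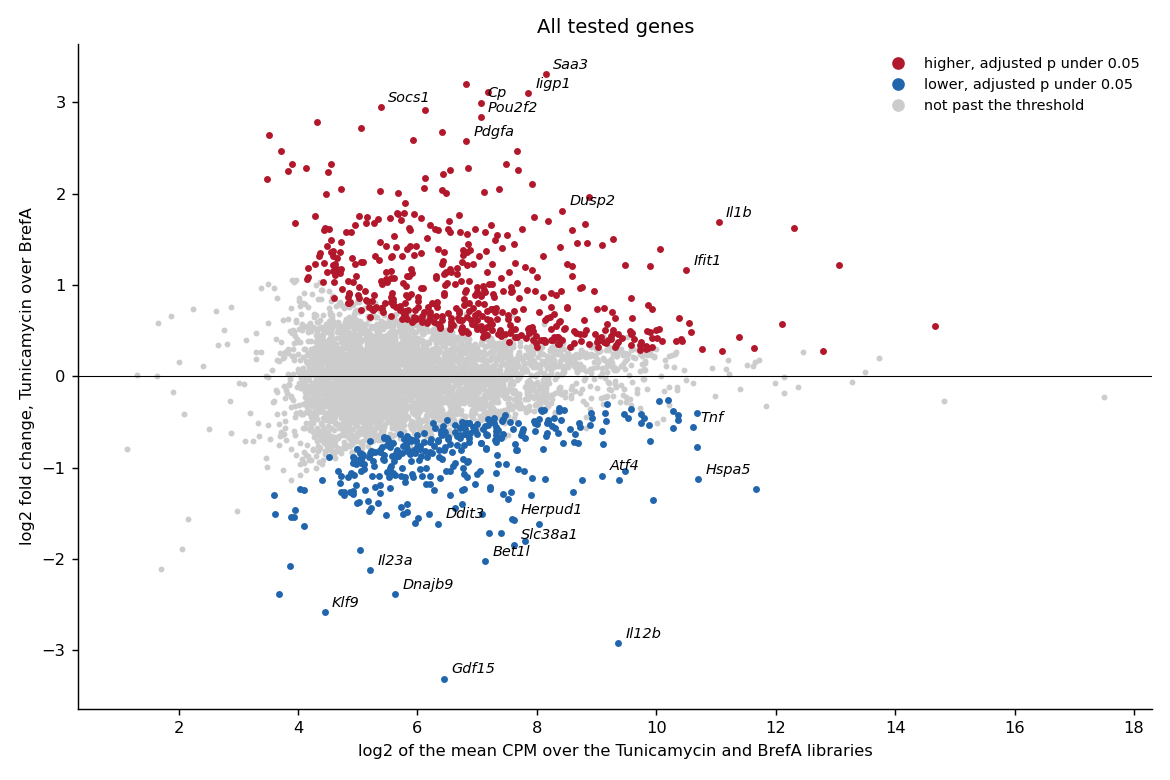
All 4963 tested genes, with the log2 of the mean CPM over the 16 Tunicamycin and BrefA libraries on the horizontal axis and the log2 fold change of Tunicamycin over BrefA on the vertical axis. Red points are the 493 genes higher in Tunicamycin and blue points the 347 lower, at an adjusted p under 0.05, and Gdf15 (-3.31) and Saa3 (3.31) lie at the lower and upper ends.

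Set against DMSO, Tunicamycin changed 4.37% of genes (139 higher, 78 lower) and BrefA 17.3% (401 higher, 459 lower). Both compounds share the DMSO libraries, so these counts are given side by side and not as independent results.

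Hspa5 and 9 other ER folding genes were lower in Tunicamycin than in BrefA. Of 22 tested ER folding genes, 10 were lower and 12 did not pass (median log2 fold change -0.5), against 6.99% of all genes lower. Hspa5 encodes BiP, the ER form of the HSP70 chaperone and the marker gene of the unfolded protein response. It was at 832 to 1253 CPM (median 1066) in Tunicamycin libraries, against 1943 to 2732 CPM (median 2239) in BrefA libraries and 574 to 842 CPM (median 729.8) in DMSO libraries. The 3 groups kept the order BrefA, Tunicamycin, DMSO by their medians, and Tunicamycin did not overlap with BrefA. The difference was -1.13 ± 0.10 (adjusted p = 4e-18), with -1.13 on plate 1 and -1.13 on plate 2. Against DMSO, Hspa5 was higher by 0.53 ± 0.11 (adjusted p = 0.000278) in Tunicamycin and by 1.66 ± 0.11 (adjusted p = 1.13e-29) in BrefA. By plate, 1 of the 22 folding genes was higher in Tunicamycin than in DMSO on plate 1 (3.87% of all genes). On plate 2 it was 0 of 22 (0.141% of all genes), so Hspa5 did not pass there.

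Co-chaperones of BiP were also lower. Dnajb9, which encodes the J-domain protein ERdj4, was at 0 to 45.9 CPM (median 15.6) in Tunicamycin libraries, against 47 to 116 CPM (median 76.8) in BrefA libraries and 13 to 24.8 CPM (median 17.3) in DMSO libraries. Tunicamycin and DMSO values overlapped, and both lay below all BrefA libraries. The log2 fold change of Tunicamycin over BrefA was -2.39 ± 0.31 (adjusted p = 1.84e-10), where BrefA stood 2.16 ± 0.30 above DMSO and Tunicamycin at -0.23 ± 0.39 (adjusted p = 0.81). Dnajc3, encoding the co-chaperone p58IPK that also inhibits PERK, was lower, at -1.34 ± 0.16 (adjusted p = 9.55e-12) and Hyou1, encoding the large HSP70-like chaperone of the ER, at -1.11 ± 0.16 (adjusted p = 9.61e-09). For both, no Tunicamycin library reached the lowest BrefA library, as for 1.01% of all tested genes. Hyou1 was -1.49 on plate 1 but -0.60 ± 0.24 (adjusted p = 0.106) on plate 2 without well F. Hsp90b1, the ER form of HSP90, was at -0.74 ± 0.17 and the disulfide isomerase gene Pdia6 at -0.78 ± 0.22, both past the threshold with overlapping libraries. Manf, a secreted ER stress factor, was at -0.81 ± 0.25 and also passed. Calr, the lectin chaperone calreticulin, was at -0.52 ± 0.24 (adjusted p = 0.131).

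Sensors and regulators of the response split. Of 16 tested, Atf4, Ddit3 and Dnajc3 were lower in Tunicamycin than in BrefA and Cebpb, Txnip and Bcl2l11 higher (median -0.43), against 6.99% of all genes lower and 9.93% higher. Without plate 2 well F, 5 were lower and 4 higher, against 8.32% and 9.54% of all genes. Ddit3 encodes CHOP, a proapoptotic factor downstream of ATF4. It was at 22.9 to 64.2 CPM (median 35.5) in Tunicamycin libraries, against 99.5 to 144 CPM (median 119) in BrefA libraries and 5.33 to 35.4 CPM (median 9.75) in DMSO libraries. Tunicamycin lay below every BrefA library, and the difference was -1.62 ± 0.24 (adjusted p = 9.11e-09). Over DMSO, Ddit3 was higher by 1.54 ± 0.33 (adjusted p = 0.00111) in Tunicamycin and by 3.15 ± 0.28 (adjusted p = 9.37e-19) in BrefA. Atf4, the regulator translated when initiation factor eIF2 is phosphorylated, had 238 to 503 CPM (median 343) in Tunicamycin libraries, against 560.4 to 895 CPM (median 719) in BrefA libraries and 85.2 to 156 CPM (median 126) in DMSO libraries. All 8 Tunicamycin values lay below all BrefA values and its log2 fold change was -1.09 ± 0.14 (adjusted p = 9.17e-11), with 1.5 ± 0.16 over DMSO for Tunicamycin and 2.58 ± 0.15 for BrefA. Atf4 was higher than DMSO in Tunicamycin on plate 2 without well F as well (1.12 ± 0.24, adjusted p = 0.015). It was the 1 gene of the 16 to pass there (0.059% of all genes higher), so Ddit3 did not. On plate 1 in that fit, 5 of the 16 were higher than DMSO (4.46% of all genes). Xbp1 itself, whose transcript IRE1 splices, was at -0.49 ± 0.22 between the compounds (adjusted p = 0.11) and was higher than DMSO in BrefA (1.03 ± 0.23, adjusted p = 0.000217). Atf6 was at -0.37 ± 0.29 (adjusted p = 0.436). The 3′ counts do not tell spliced from unspliced Xbp1.

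Cebpb, a C/EBP factor of both stress and inflammatory programmes, went the other way. It had 102 to 644 CPM (median 240.3) in Tunicamycin libraries, against 50.7 to 187 CPM (median 102) in BrefA libraries and 70.8 to 149 CPM (median 126) in DMSO libraries. Groups overlapped, and the spread within Tunicamycin followed the plates: 226 to 644 CPM on plate 1 against 102 to 255 CPM on plate 2. Its difference from BrefA was 1.45 ± 0.20 (adjusted p = 5.5e-09) over both plates, 2.30 ± 0.25 (adjusted p = 2.3e-13) on plate 1 and 0.44 ± 0.25 (adjusted p = 0.353) on plate 2, and the difference between the plates passed the threshold (-1.86 ± 0.36, adjusted p = 0.000688). Txnip, the thioredoxin-interacting protein gene, was higher by 1.03 ± 0.26 (adjusted p = 0.0017), and Bcl2l11, encoding the proapoptotic BIM, by 0.52 ± 0.13 (adjusted p = 0.00157).

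Of 23 tested genes of ER-associated degradation, which removes misfolded proteins, 6 were lower in Tunicamycin than in BrefA, 1 was higher and 16 did not pass (median -0.31), against 6.99% of all genes lower and 9.93% higher. Herpud1, an organiser of the ubiquitin ligase complex of the ER membrane, had 24.1 to 182 CPM (median 101) in Tunicamycin libraries, against 192 to 402 CPM (median 284) in BrefA libraries and 11.6 to 33.5 CPM (median 22) in DMSO libraries. No Tunicamycin library reached the lowest BrefA library, and the lowest Tunicamycin value lay within the DMSO range. The difference from BrefA was -1.57 ± 0.20 (adjusted p = 1.12e-10). On plate 1, Herpud1 was at 72.7 to 182 CPM in Tunicamycin libraries, 279 to 349 CPM in BrefA libraries and 12.4 to 24.8 CPM in DMSO libraries. On plate 2 without well F it was at 0.72 ± 0.43 (adjusted p = 0.926) over DMSO, against 2.80 ± 0.36 (adjusted p = 2.66e-09) on plate 1, while the difference from BrefA was -1.11 on plate 1 and -2.84 on plate 2 without well F (difference between plates -1.73 ± 0.41, adjusted p = 0.00731). Sel1l, the adaptor of the same ligase complex, was at -0.52 ± 0.14, Derl1, a channel component, at -1.02 ± 0.22, and Edem3, a mannosidase that marks glycoproteins for removal, at -1.27 ± 0.33, all lower. Vimp was lower, at -0.96 ± 0.18 (adjusted p = 6.71e-06), with -1.76 on plate 1 and -0.29 on plate 2 (difference between plates 1.47 ± 0.33, adjusted p = 0.00349). Rnf139, an ER membrane ubiquitin ligase, was the 1 gene that rose (0.76 ± 0.21, adjusted p = 0.00586).

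The N-glycosylation pathway is the one that Tunicamycin acts on. Of 46 listed genes 17 were tested, and 3 of them were lower in Tunicamycin and 14 did not pass (median -0.23), against 6.99% of all genes lower and 16.9% called either way. The target enzyme gene Dpagt1 had too few counts to be tested. Gfpt1, which makes the amino sugar that enters the pathway, was at 4.31 to 30.5 CPM (median 18) in Tunicamycin libraries, against 28.2 to 72.6 CPM (median 40.1) in BrefA libraries and 8.38 to 26 CPM (median 16.8) in DMSO libraries. Tunicamycin and DMSO ranges overlapped, the lowest BrefA library lay within the top of the Tunicamycin range, and the difference was -1.29 ± 0.33 (adjusted p = 0.00169). Ostc and Magt1, subunits of the oligosaccharyltransferases, were lower, at -0.80 ± 0.24 (adjusted p = 0.00829) and -0.63 ± 0.16 (adjusted p = 0.00174). The catalytic subunits did not pass: Stt3a was at -0.54 ± 0.28 (adjusted p = 0.193) and Stt3b at -0.21 ± 0.21 (adjusted p = 0.553). Magt1 was also lower than DMSO in Tunicamycin (-0.57 ± 0.16, adjusted p = 0.0216) and at 0.059 ± 0.15 in BrefA. By plate, 1 of the 17 was lower in Tunicamycin than in DMSO on plate 1 (3.43% of all genes). On plate 2 it was 0 of 17 (0.0403% of all genes), so Magt1 did not pass there.

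Of 22 tested genes for the entry of proteins into the ER, 9 were lower in Tunicamycin and 13 did not pass (median -0.37), against 6.99% of all genes lower. Against DMSO, the median of the 22 was 0.26 in Tunicamycin and 0.60 in BrefA, where 12 were higher (8.08% of all genes). Srp19 and Srp72, proteins of the signal recognition particle, were at -0.99 ± 0.19 and -0.79 ± 0.18, and Srpr, its receptor, at -0.89 ± 0.22. The channel gene Sec61a1 was at -0.80 ± 0.21 and Sec63, which couples the channel to BiP, at -0.81 ± 0.25. The translocon-associated Ssr2 was at -0.71 ± 0.21, and all of these passed the threshold with overlapping libraries. Sec61a1 was at 30.5 to 112 CPM (median 66.5) in Tunicamycin libraries, against 55.1 to 190.2 CPM (median 105) in BrefA libraries and 34.7 to 100.0 CPM (median 61.3) in DMSO libraries. The Tunicamycin and DMSO medians lay close together, below that of BrefA.

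Vesicle traffic between the ER and the Golgi is the step that brefeldin A blocks. Of 28 tested COPII and cargo exit genes, 5 were lower in Tunicamycin and 23 did not pass (median -0.27), against 6.99% of all genes lower. Of 22 tested ARF, COPI and Golgi genes, 6 were lower and 16 did not pass (median -0.40), against the same 6.99%. Kdelr2 encodes a receptor that returns escaped chaperones to the ER. It had 105 to 164 CPM (median 124) in Tunicamycin libraries, against 275 to 598 CPM (median 395) in BrefA libraries and 80.5 to 182 CPM (median 149.6) in DMSO libraries. Tunicamycin and DMSO overlapped, both below BrefA, and the difference was -1.62 ± 0.16 (adjusted p = 5.4e-16), with -1.82 on plate 1 and -1.41 on plate 2. Bet1l, a SNARE of transport within the Golgi, had 25.2 to 84.4 CPM (median 50.6) in Tunicamycin libraries, against 204 to 257 CPM (median 227) in BrefA libraries and 32 to 70.1 CPM (median 65.4) in DMSO libraries. This gap was -2.03 ± 0.19 (adjusted p = 1.23e-17), with -2.17 and -1.90 on the plates. Bet1l in Tunicamycin was at -0.082 ± 0.22 relative to DMSO (adjusted p = 0.892) and in BrefA at 1.94 ± 0.19 (adjusted p = 5.58e-17).

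Golgb1, encoding the tethering protein giantin, was lower, at -1.27 ± 0.24 (adjusted p = 2.07e-05), and Golga4, another golgin, at -0.75 ± 0.21 (adjusted p = 0.00566). Arfgap3, which switches ARF off on the Golgi, was lower, at -1.38 ± 0.31 (adjusted p = 0.000345). Copb1 and Copb2, subunits of the COPI coat, were at -0.78 ± 0.23 and -0.90 ± 0.21, both lower. Without plate 2 well F, no Tunicamycin library reached the lowest BrefA library for Copb2, as for 1.35% of all tested genes. Arf4, a small GTPase, was at -0.34 ± 0.16 over both plates (adjusted p = 0.142), with 0.26 ± 0.21 (adjusted p = 0.414) on plate 1 and -1.0 ± 0.22 (adjusted p = 0.000626) on plate 2. Arf1 was at -0.10 ± 0.18 (adjusted p = 0.768). At the exit from the ER, Yipf5 was lower, at -1.04 ± 0.18 (adjusted p = 1.24e-06), Lman1, a cargo lectin, at -0.86 ± 0.27 (adjusted p = 0.017), Sec24a, a coat subunit that picks cargo, at -0.73 ± 0.24 (adjusted p = 0.021), and Mia3, which loads large cargo, at -0.69 ± 0.20 (adjusted p = 0.00671). Stx3 and Golt1b, a plasma membrane SNARE gene and a Golgi transport gene outside these lists, were among the 15 lowest genes by the rule above, at -1.72 ± 0.18 and -1.61 ± 0.25.

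**Figure D2:**
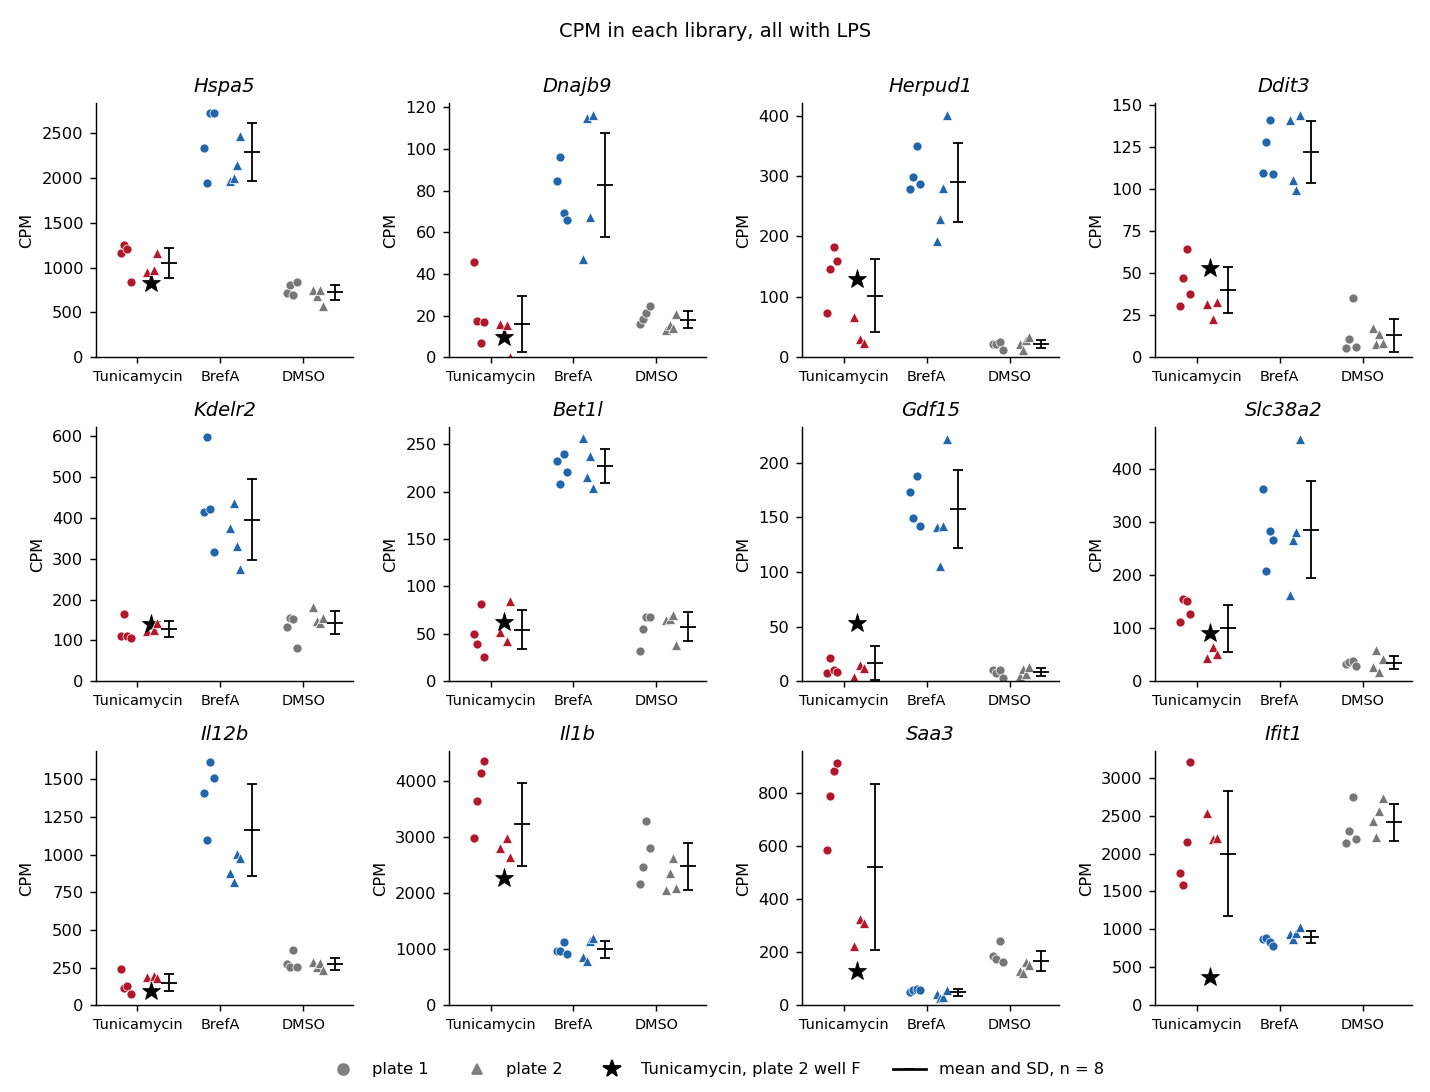
CPM of 12 genes in each library, with Tunicamycin, BrefA and DMSO from left to right in each panel. Circles are plate 1, triangles plate 2 and the star the Tunicamycin library of plate 2 well F, and bars give the mean and SD of 8 libraries. For Hspa5, Dnajb9, Herpud1, Ddit3, Kdelr2, Bet1l, Gdf15, Slc38a2 and Il12b the Tunicamycin points all lie below the BrefA points, and for Il1b and Saa3 all above them. For Ifit1 the star, at 365 CPM, lies below every BrefA point.

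Amino acid and ATF4-driven genes had the lowest list median among the lists described here. Of 13 tested, 8 were lower in Tunicamycin and 1 higher, with a median of -1.22, against 6.99% of all genes lower and 9.93% higher. Slc38a2, a neutral amino acid transporter gene, had 43.6 to 155 CPM (median 101) in Tunicamycin libraries, against 163 to 458 CPM (median 274) in BrefA libraries and 17.5 to 58 CPM (median 34.5) in DMSO libraries. Tunicamycin lay below every BrefA library, and the difference was -1.57 ± 0.18 (adjusted p = 3.48e-13). It was -1.05 on plate 1 and -2.24 on plate 2, a difference between plates that passed the threshold (adjusted p = 0.0249). Over DMSO, Slc38a2 was at 1.99 ± 0.29 (adjusted p = 2.77e-07) in Tunicamycin on plate 1 and at 0.78 ± 0.33 (adjusted p = 0.625) on plate 2. Slc38a1, a related transporter gene outside the list, was lower, at -1.85 ± 0.17 (adjusted p = 7.53e-18) and was also below DMSO in Tunicamycin (-0.74 ± 0.18, adjusted p = 0.00566).

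Cebpg, a C/EBP partner of ATF4, was lower, at -1.44 ± 0.21 (adjusted p = 1.6e-08) and Slc7a1, the cationic amino acid transporter gene, at -1.43 ± 0.27 (adjusted p = 8.73e-06). Neither overlapped between the compounds, as for 1.01% of all tested genes with Tunicamycin below. Mthfd2, of mitochondrial folate metabolism, was at -1.24 ± 0.23 and Asns, asparagine synthetase, at -1.22 ± 0.32, both lower. Asns ranged over 0 to 50.5 CPM (median 23.4) in Tunicamycin libraries, 27.5 to 81 CPM (median 54.4) in BrefA libraries and 0 to 26 CPM (median 9.91) in DMSO libraries. The 2 compounds overlapped, and the Tunicamycin value over DMSO was 1.17 ± 0.42 (adjusted p = 0.0939). Atf3, a stress factor that also restrains LPS-induced genes, was the 1 gene that rose in Tunicamycin relative to BrefA. It had 149 to 311 CPM (median 185) in Tunicamycin libraries, against 92.9 to 128 CPM (median 104) in BrefA libraries and 186 to 308 CPM (median 203) in DMSO libraries. Every Tunicamycin library lay above every BrefA library (0.91 ± 0.16, adjusted p = 3.23e-06), and BrefA was below DMSO (-1.04 ± 0.16, adjusted p = 4.28e-08).

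The tRNA synthetases, a class of ATF4 targets, had 6 of 15 lower and 9 not past the threshold (median -0.67), against 6.99% of all genes lower. Eprs, for glutamate and proline, had 147 to 198 CPM (median 182) in Tunicamycin libraries, against 321 to 445 CPM (median 379) in BrefA libraries and 133 to 183 CPM (median 154) in DMSO libraries. Tunicamycin values lay within a narrow band that overlapped with DMSO and not with BrefA, and the difference was -1.13 ± 0.14 (adjusted p = 8.68e-11). Mars, for methionine, was at -1.49 ± 0.28 (adjusted p = 1.09e-05), Aars, for alanine, at -1.09 ± 0.25, Nars, for asparagine, at -1.01 ± 0.17 and Tars, for threonine, at -1.05 ± 0.29, all lower. Mars was also above DMSO in Tunicamycin (1.33 ± 0.39, adjusted p = 0.0294), the 1 synthetase of the list to pass that comparison. In BrefA it was above DMSO by 2.82 ± 0.33 (adjusted p = 2.31e-12). By plate, 1 of the 15 was higher in Tunicamycin than in DMSO on plate 1 (3.87% of all genes). On plate 2 it was 0 of 15 (0.141% of all genes), so Mars did not pass there.

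**Figure D3:**
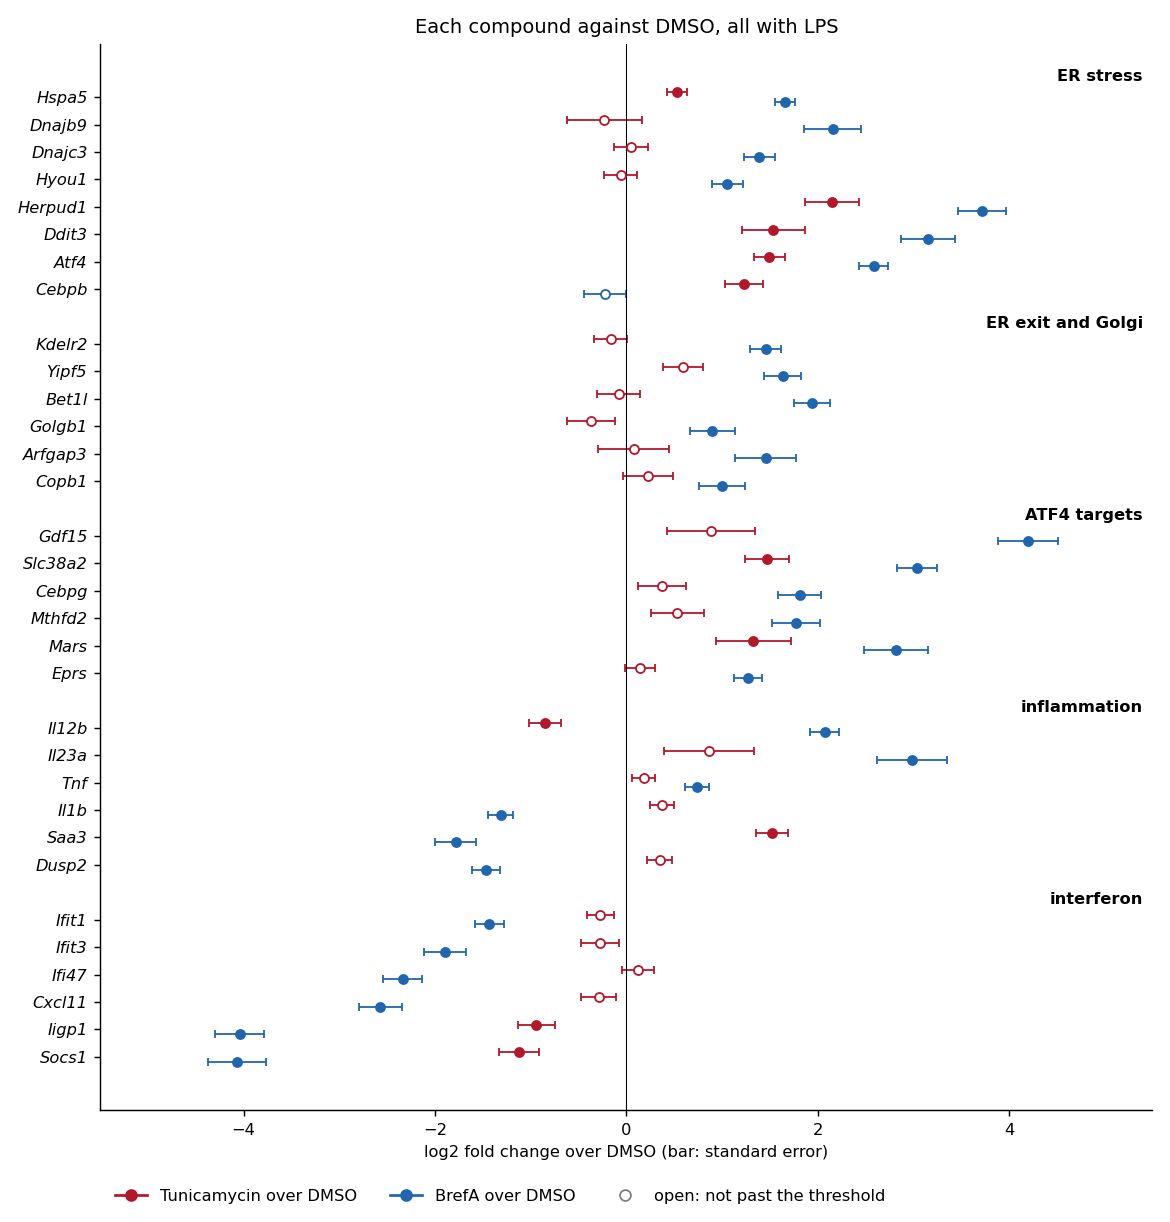
Log2 fold change over DMSO with its standard error for 32 named genes, Tunicamycin in red above BrefA in blue for each gene. Filled points passed an adjusted p under 0.05. Herpud1, Ddit3, Atf4 and Slc38a2 are filled for both compounds and further right for BrefA, Kdelr2, Bet1l and Golgb1 are filled for BrefA alone, and Saa3 lies right of 0 for Tunicamycin and left of it for BrefA. The DMSO libraries are shared by both colours.

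Inflammatory genes went both ways, with 12 of 44 tested higher and 8 lower in Tunicamycin than in BrefA (median 0.16), against 9.93% of all genes higher and 6.99% lower. On plate 1, 16 were higher and 8 lower (11.2% and 9.11% of all genes), and on plate 2, 5 were higher and 7 lower (5.2% and 3.02%). Il12b encodes the p40 subunit shared by interleukins 12 and 23. It had 71.5 to 237 CPM (median 155) in Tunicamycin libraries, against 817 to 1613 CPM (median 1048) in BrefA libraries and 235 to 365 CPM (median 263) in DMSO libraries. By their medians BrefA lay above DMSO and Tunicamycin below it, with no library crossing between the compounds. The difference was -2.92 ± 0.16 (adjusted p = 8.26e-35). It was -3.34 on plate 1 and -2.48 on plate 2, and against DMSO Tunicamycin was at -1.03 ± 0.22 (adjusted p = 0.000798) on plate 1 and -0.68 ± 0.22 (adjusted p = 0.229) on plate 2. The difference between the plates in the gap to BrefA was 0.86 ± 0.29 (adjusted p = 0.0671) with all libraries and 0.99 ± 0.29 (adjusted p = 0.0377) without plate 2 well F. Il23a, the second subunit of interleukin 23, followed at -2.12 ± 0.33 (adjusted p = 5.39e-08), with 0 to 25.8 CPM (median 14.2) in Tunicamycin libraries, against 35.5 to 92.4 CPM (median 63.1) in BrefA libraries and 3.51 to 12.4 CPM (median 7.73) in DMSO libraries. The compounds did not overlap. Tnf was lower, at -0.56 ± 0.12 (adjusted p = 0.000249), with overlapping libraries (1031 to 1817 CPM (median 1220.5) in Tunicamycin libraries, 1405 to 2304 CPM (median 1881) in BrefA libraries), and without plate 2 well F the ranges did not overlap.

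Higher in Tunicamycin was Il1b, the interleukin 1 beta gene, with 2269 to 4367 CPM (median 2985) in Tunicamycin libraries, against 780.3 to 1205 CPM (median 967) in BrefA libraries and 2060.2 to 3297 CPM (median 2414) in DMSO libraries. All Tunicamycin libraries lay above all BrefA libraries, and Tunicamycin overlapped with DMSO. The difference was 1.69 ± 0.13 (adjusted p = 3.83e-20), with 1.93 on plate 1 and 1.42 on plate 2. Saa3, described above, was higher than DMSO in Tunicamycin (1.52 ± 0.17, adjusted p = 9.51e-12) and lower in BrefA (-1.79 ± 0.22, adjusted p = 1.28e-11). Within Tunicamycin it reached 585 to 913 CPM on plate 1 and 129.8 to 324 CPM on plate 2, and over DMSO it was at 1.01 ± 0.24 (adjusted p = 0.0444) on plate 2 without well F. Dusp2, a phosphatase of MAP kinases, was higher by 1.82 ± 0.15 (adjusted p = 2.45e-21) with no overlap. Ccl12, a monocyte chemokine gene, was higher by 1.68 ± 0.34 (adjusted p = 4.22e-05) and Il6 by 0.87 ± 0.23 (adjusted p = 0.00281). Il6 was at 1.22 on plate 1 and 0.39 ± 0.35 (adjusted p = 0.608) on plate 2.

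The interferon-stimulated genes were higher in Tunicamycin than in BrefA as a group: 39 of 50 tested were higher and 11 did not pass (median 1.22), against 9.93% of all genes higher. Against DMSO, 13 of the 50 were lower in Tunicamycin (1.57% of all genes; median -0.30) and 41 in BrefA (9.25% of all genes; median -1.57). For Tunicamycin against DMSO, 10 were lower on plate 1 (3.43% of all genes; median -0.28) and 1 on plate 2 (0.0403%; median -0.37). Without plate 2 well F, 9 of the 50 were lower over both plates (1.36% of all genes; median -0.19), and the plate 2 median was -0.13. Summed over the 51 listed genes, the level was 34762 to 46600.2 CPM in the 7 Tunicamycin libraries other than plate 2 well F, 16124 to 19352 CPM in BrefA libraries, 46628 to 55679.6 CPM in DMSO libraries and 4185 to 12129 CPM in NoStim libraries. These 4 ranges did not overlap, although the highest of the 7 Tunicamycin libraries lay just below the lowest DMSO library. Without plate 2 well F, 39 of 50 were again higher, with a median of 1.33.

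Ifit1, which binds foreign RNA without a host cap, had 365 to 3214 CPM (median 2170.4) in Tunicamycin libraries, against 785 to 1025 CPM (median 876) in BrefA libraries and 2135 to 2751 CPM (median 2365) in DMSO libraries. The Tunicamycin minimum was plate 2 well F, and the other 7 lay above all BrefA libraries. The log2 fold change was 1.16 ± 0.15 (adjusted p = 4.2e-10), and 1.30 without that library. Iigp1, of the GTPases that attack the vacuoles of parasites, had 43.3 to 658 CPM (median 452) in Tunicamycin libraries, against 4.22 to 71.1 CPM (median 47.8) in BrefA libraries and 520.5 to 999 CPM (median 856) in DMSO libraries. Well F of plate 2 again set the minimum and was the 1 Tunicamycin library within the BrefA range. Iigp1 was higher by 3.10 ± 0.26 (adjusted p = 1.25e-17) than in BrefA, and below DMSO in both compounds, at -0.94 ± 0.20 (adjusted p = 0.000973) in Tunicamycin and -4.04 ± 0.25 (adjusted p = 1.25e-24) in BrefA. On plate 2 without well F, Tunicamycin was at -0.33 ± 0.21 (adjusted p = 0.926) over DMSO. Socs1, the inhibitor of interferon receptor kinases, had 4.81 to 127 CPM (median 75.2) in Tunicamycin libraries, against 0 to 21.3 CPM (median 5.96) in BrefA libraries and 116 to 248 CPM (median 160.1) in DMSO libraries. Apart from plate 2 well F, Tunicamycin exceeded every BrefA library, and the difference was 2.95 ± 0.34 (adjusted p = 1.05e-12).

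Ifi47 and Irgm2, of the same GTPase family as Iigp1, were higher by 2.46 ± 0.20 (adjusted p = 5.8e-20) and 2.26 ± 0.23 (adjusted p = 1.49e-15). Tgtp1 and Tgtp2, near-identical copies whose reads cannot be assigned with certainty, were at 2.59 ± 0.26 and 2.92 ± 0.26, both higher. The chemokine gene Cxcl11, annotated in mouse as a polymorphic pseudogene, was higher by 2.28 ± 0.23 (adjusted p = 2.11e-15) and Ifit3 by 1.61 ± 0.22 (adjusted p = 1.03e-08). For these 6 genes the ranges of Tunicamycin and BrefA overlapped through plate 2 well F and were apart without it. Without that library, Tunicamycin lay above BrefA throughout for 3.16% of all tested genes. That share includes the 1.15% that were also apart with all libraries. Ifit2 was at 1.26 ± 0.26 (adjusted p = 0.00016) on plate 1 and 0.59 ± 0.26 (adjusted p = 0.185) on plate 2 without well F.

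**Figure D4:**
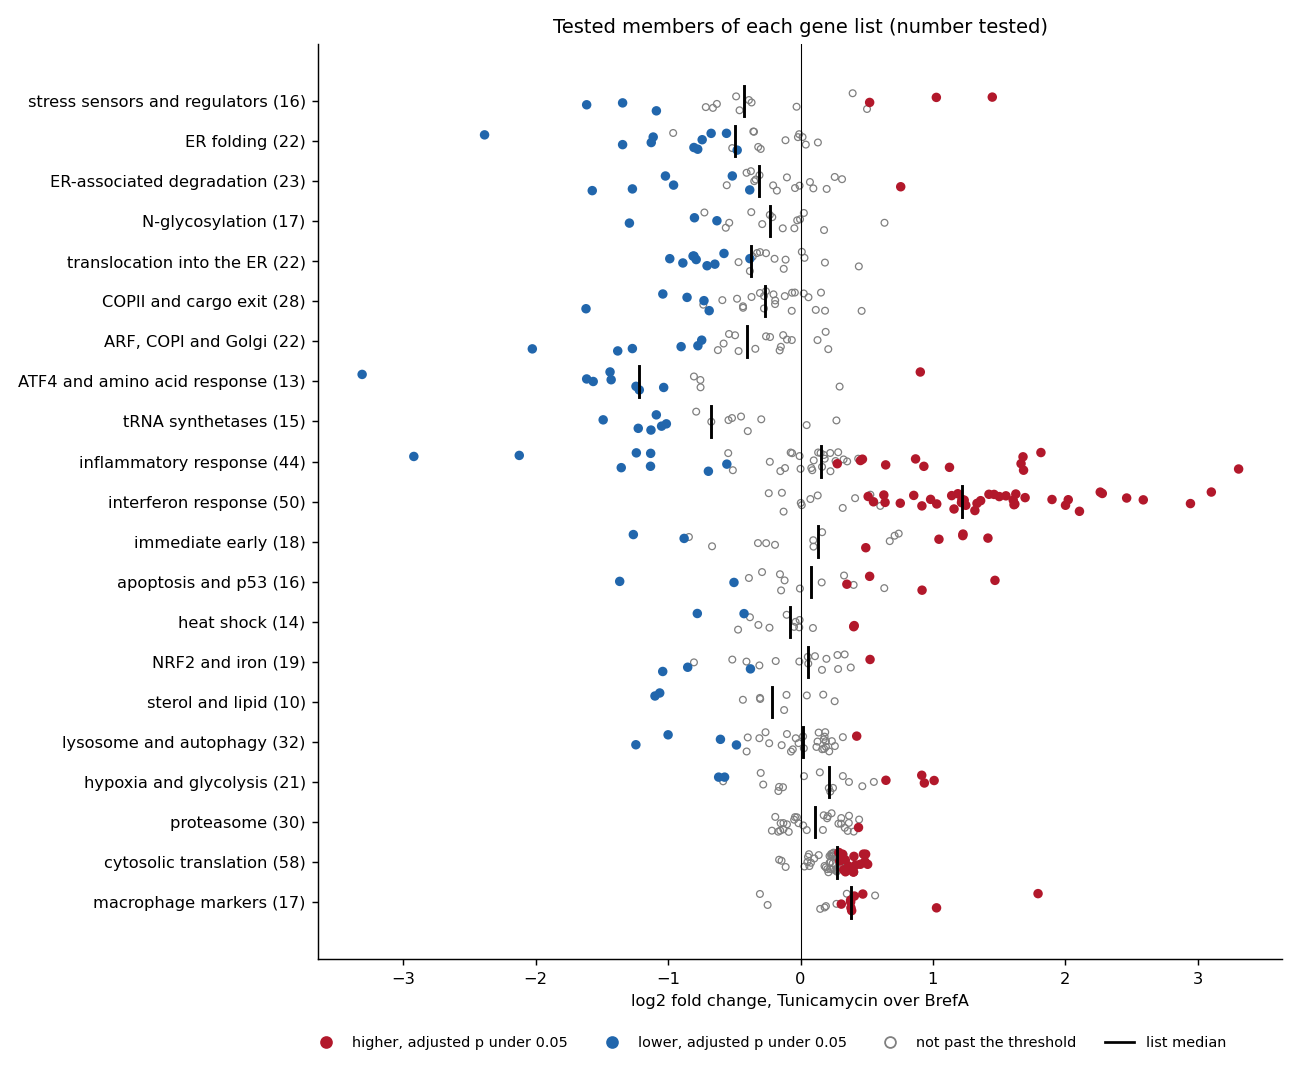
Log2 fold change of Tunicamycin over BrefA for each tested member of 21 gene lists, 1 point a gene, with the number tested beside the list name and the list median as a black bar. Red points were higher and blue points lower at an adjusted p under 0.05. The ER, Golgi, ATF4 and tRNA synthetase lists lie mostly left of 0, with medians between -1.22 and -0.23, and the interferon list lies right of it.

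Regulators outside the lists were among the largest differences. Pou2f2, encoding the lymphoid factor OCT2, had 118 to 538 CPM (median 197) in Tunicamycin libraries, against 5.34 to 54.3 CPM (median 32.7) in BrefA libraries and 107 to 184 CPM (median 161) in DMSO libraries. Tunicamycin lay above BrefA throughout, its maximum being plate 2 well F, and the difference was 2.84 ± 0.21 (adjusted p = 5.09e-24) or 2.56 without that library. Map3k8, the kinase TPL2 that links LPS to ERK, was higher by 2.67 ± 0.26 (adjusted p = 4.46e-16). Arid5a, which stabilises Il6 transcripts, was higher by 2.78 ± 0.40 (adjusted p = 5.5e-09). Pdgfa, a growth factor gene, was higher by 2.58 ± 0.19 (adjusted p = 3.93e-25), and Cp by 3.0 ± 0.24 (adjusted p = 1.97e-20). None of these 4 overlapped between the compounds, as for 1.15% of all tested genes with Tunicamycin above. They were named for large differences in these same libraries. At the low end, Klf9, a Krüppel-like factor gene, was at 0 to 19.1 CPM (median 4.08) in Tunicamycin libraries, against 29.6 to 54.9 CPM (median 34.3) in BrefA libraries and 3.51 to 12.6 CPM (median 9.96) in DMSO libraries. Its gap to BrefA was -2.59 ± 0.41 (adjusted p = 1.46e-07), again with no overlap. Plau, the urokinase gene, was lower, at -1.72 ± 0.23 (adjusted p = 3.52e-09).

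Immediate early genes were mixed, with 5 of 18 higher and 2 lower, against 9.93% and 6.99% of all genes. Zfp36, which hastens the decay of cytokine transcripts, was higher by 1.23 ± 0.14 (adjusted p = 1.34e-12), at 377 to 836 CPM (median 449) in Tunicamycin libraries, against 144 to 317 CPM (median 217) in BrefA libraries and 299 to 493 CPM (median 399.5) in DMSO libraries. Tunicamycin did not overlap with BrefA. Fosl2 and Ier3 were higher by 1.42 ± 0.23 (adjusted p = 4.17e-07) and 1.23 ± 0.23 (adjusted p = 8.55e-06), and Maff, a small MAF factor gene, was lower, at -1.26 ± 0.32 (adjusted p = 0.00174). Fos rested on 1 library: it was at 1.05 ± 0.35 (adjusted p = 0.0235) with all libraries, plate 2 well F stood at 269 CPM where the other Tunicamycin libraries reached at most 37.2 CPM, and without that library it was at 0.12 (adjusted p = 0.836).

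Death genes had 4 of 16 higher and 2 lower, against 9.93% and 6.99% of all genes. Fas, the death receptor gene, was higher by 1.47 ± 0.36 (adjusted p = 0.000898) and Casp4, the caspase that senses LPS in the cytosol, by 0.92 ± 0.16 (adjusted p = 1.77e-06). Bbc3, encoding the proapoptotic PUMA, was lower, at -1.37 ± 0.30 (adjusted p = 0.000175), and in BrefA it was above DMSO by 2.01 ± 0.32 (adjusted p = 1.67e-07). Cdkn1a was at -0.12 ± 0.11 (adjusted p = 0.499).

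Cytosolic heat shock genes had 2 of 14 higher and 2 lower, against 9.93% and 6.99% of all genes. Hsp90aa1, the inducible cytosolic HSP90, was lower, at -0.78 ± 0.12 (adjusted p = 6.26e-08) with no overlap, and Hspa8, the constitutive HSP70, higher by 0.41 ± 0.098 (adjusted p = 0.000823). The inducible Hspa1a was at -0.32 ± 0.32 (adjusted p = 0.559). NRF2 targets had 1 of 19 higher and 3 lower, against 9.93% and 6.99% of all genes, and 1 higher and 5 lower without plate 2 well F (9.54% and 8.32%). Lower with all libraries were, among others, Gclc, for glutathione synthesis (-0.85 ± 0.24, adjusted p = 0.00463), and Mafg (-1.04 ± 0.18, adjusted p = 7.11e-07). The partner of Gclc, Gclm, was at -0.52 ± 0.20 (adjusted p = 0.064) with all libraries and at -0.83 (adjusted p = 0.000334) without plate 2 well F. The difference between the plates without that library was 1.13 ± 0.34 (adjusted p = 0.0399), with -1.34 ± 0.25 (adjusted p = 8.71e-06) on plate 1 and -0.21 ± 0.25 (adjusted p = 0.722) on plate 2.

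Of sterol genes 2 of 10 were lower, against 6.99% of all genes. Insig1, which retains the sterol sensor complex in the ER, was lower, at -1.06 ± 0.18 (adjusted p = 1.09e-06), and Mylip, which degrades the LDL receptor, at -1.10 ± 0.22 (adjusted p = 3.39e-05). Lysosome and autophagy genes had 4 of 32 lower and 1 higher, together near the 16.9% of all genes called. Fnip1 and Fnip2, the folliculin partners, were lower at -1.24 ± 0.21 and -1.0 ± 0.17. The lysosomal Ctsd was at 0.18 ± 0.097 (adjusted p = 0.2) and Lamp1 at 0.22 ± 0.11 (adjusted p = 0.18). Glucose genes had 4 of 21 higher and 2 lower, against 9.93% and 6.99% of all genes, the lower being Pfkp at -0.62 ± 0.21 and Ndrg1 at -0.57 ± 0.20, neither of which passed without plate 2 well F (adjusted p = 0.0607 and 0.0848). Slc16a3, the lactate exporter gene, had 51.5 to 76.9 CPM (median 62.2) in Tunicamycin libraries, against 14.5 to 45.8 CPM (median 35.1) in BrefA libraries and 7.01 to 53.1 CPM (median 21.3) in DMSO libraries. Tunicamycin exceeded all BrefA libraries (0.92 ± 0.27, adjusted p = 0.00898), and it exceeded DMSO by 1.31 ± 0.28 (adjusted p = 0.00125). Pfkfb3, which sets the pace of glycolysis, was higher by 0.94 ± 0.19 (adjusted p = 5.64e-05) and the glucose transporter gene Slc2a1 by 1.01 ± 0.24 (adjusted p = 0.000656).

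Genes of cytosolic translation were counted separately on the plates. With all libraries 17 of 58 were higher in Tunicamycin (9.93% of all genes; median 0.27), and 8 of 58 with same-named wells summed (6.09% of all genes). On plate 1, 32 were higher (10.8% of all genes) with a median of 0.46, and on plate 2 without well F the median was 0.024. Rpl32, a protein of the large ribosomal subunit, was at 0.96 ± 0.17 (adjusted p = 6.01e-06) on plate 1 and -0.12 ± 0.19 (adjusted p = 0.799) on plate 2 without well F, and the difference between the plates was -1.09 ± 0.26 (adjusted p = 0.00731). The summed level of the list in Tunicamycin libraries was 36649 to 47895 CPM on plate 1 and 31899 to 34574 CPM on plate 2 without well F. Ldha, lactate dehydrogenase, likewise passed on plate 1 (1.11 ± 0.17, adjusted p = 1.75e-07) and not on plate 2 (0.15 ± 0.17, adjusted p = 0.725), with a difference between the plates of -0.96 ± 0.25 (adjusted p = 0.0127). Of 30 proteasome genes, 1 was higher, against 9.93% of all genes (Psma6, 0.44 ± 0.15, adjusted p = 0.0248).

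Of 17 tested macrophage markers 9 were higher in Tunicamycin than in BrefA (9.93% of all genes). Against DMSO, 1 was higher in Tunicamycin (2.8% of all genes) and 5 were lower in BrefA (9.25%). Fcgr1, the high-affinity IgG receptor gene and itself inducible by interferon, had 57.4 to 114 CPM (median 83.9) in Tunicamycin libraries, against 16 to 32.1 CPM (median 24) in BrefA libraries and 53.3 to 142 CPM (median 111) in DMSO libraries. Tunicamycin and BrefA did not overlap, and the difference was 1.79 ± 0.24 (adjusted p = 7.41e-10). The scavenger receptor gene Msr1 was higher by 1.03 ± 0.15 (adjusted p = 2.83e-08), with no overlap, and the receptor gene Csf1r by 0.38 ± 0.12 (adjusted p = 0.0112). Mki67, a marker of cycling cells, was at -0.48 ± 0.27 (adjusted p = 0.246).

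**Figure D5:**
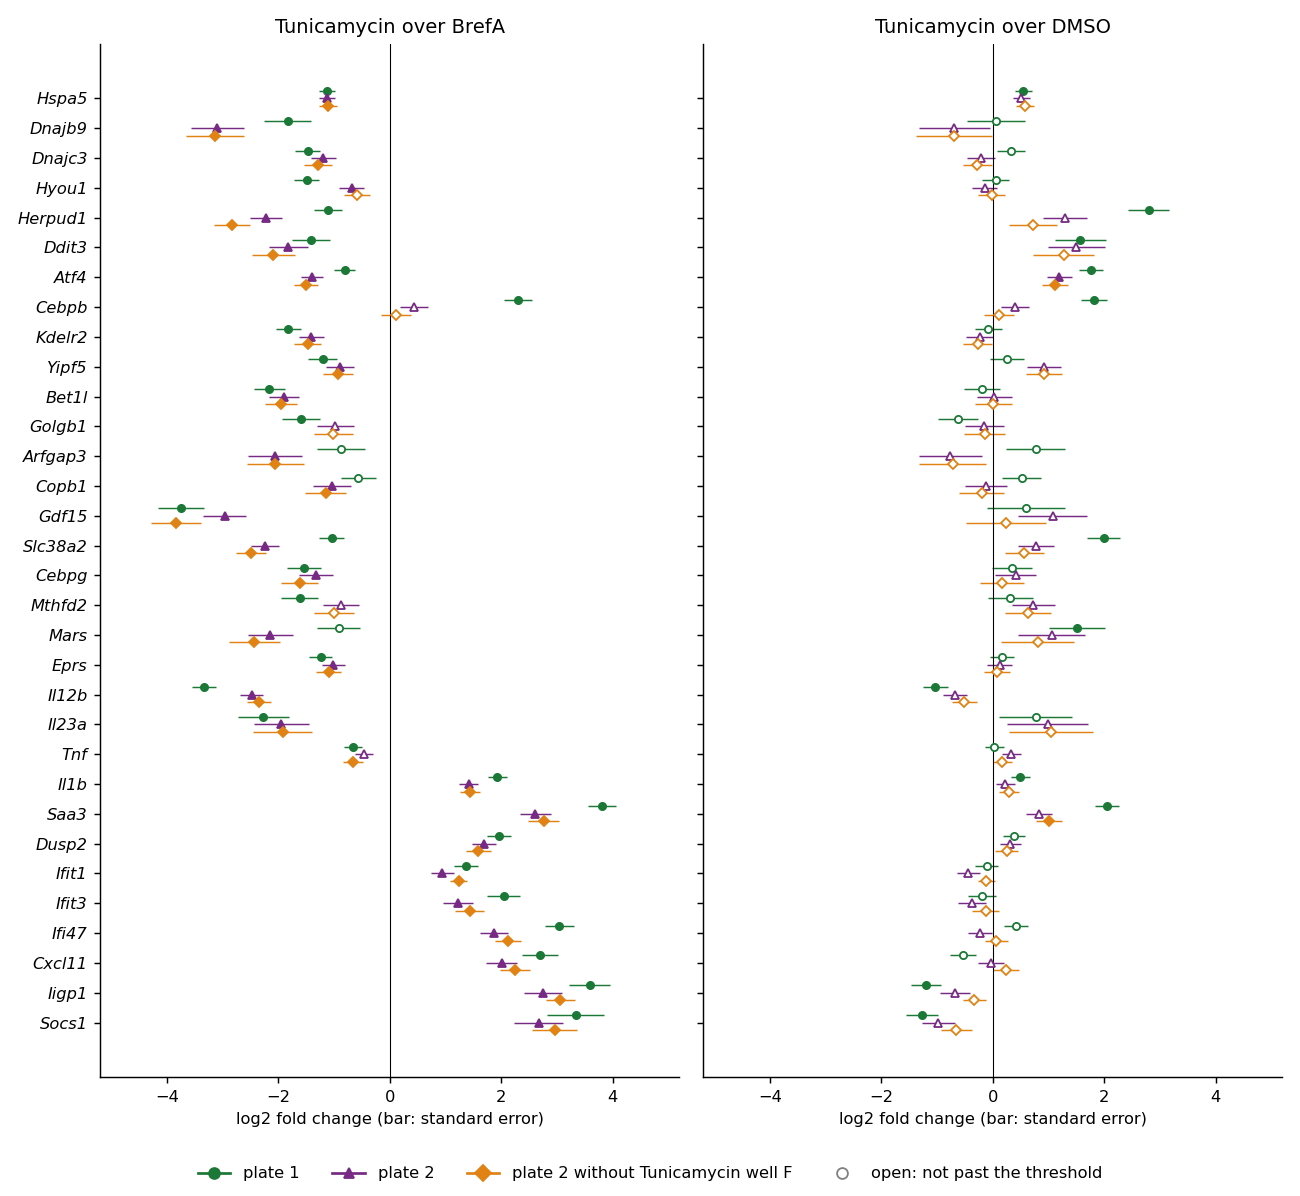
Log2 fold change with its standard error on each plate for 32 named genes, Tunicamycin over BrefA on the left and Tunicamycin over DMSO on the right. Circles are plate 1, triangles plate 2 and diamonds plate 2 without Tunicamycin well F, and filled symbols passed an adjusted p under 0.05. On the left most genes are filled on both plates with 1 sign, whereas Cebpb lies apart between the plates. On the right, Atf4 and, without well F, Saa3 are the genes filled on plate 2.

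The size of the gap between the compounds itself differed between plates for 210 of 4963 genes (4.23%), and for 186 of 5084 (3.66%) without plate 2 well F. Of the 840 genes called between the compounds, 796 had the same sign on both plates. The call used these same libraries of both plates, which favours a shared sign, so the count is not a separate check.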

How the data were processed

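Counts per gene symbol were deposited by the authors as a table of 23481 genes and 96 libraries, 8 in each of 12 groups. Libraries were made by a modified 3′ protocol (SCRB-Seq with Nextera) per the labels, and BWA and the build mm10 are named per the submitters' processing notes. No source used here gives the annotation, a version of BWA or whether molecular identifiers were collapsed. Genes were kept by filterByExpr on groups (4963), libraries were scaled by TMM, and edgeR 4.0.16 in R 4.3.3 (limma 3.58.1) fitted group and plate over the 96 libraries. Its quasi-likelihood F test was two-sided, with Benjamini-Hochberg adjustment over all tested genes and a threshold of 0.05. Values after ± are standard errors unless called SD, and folds are log2. The script was checked on simulated counts. It recovered 21 of 67 genes changed 1.5-fold, 51 of 67 changed 2-fold and 63 of 66 changed 4-fold, and 12 of 147 calls were false. The simulated counts held no difference between the compounds that varied by plate and no outlying library. DESeq2 1.42.0 was an alternative, beside other scalings, filters, library subsets, a replicate block and a Rn45s covariate. Summed wells without well F, plate 2 without well F and the fit with a term for each group on each plate were added after seeing the data.

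Genes were named from 29 gene lists (the 3 first-listed tested members and up to 6 that passed) and from the 15 highest and 15 lowest genes with at least 30 mean CPM in the higher group and 1 sign on both plates, predicted genes skipped. The text gives a selection of these. The groups and lists were chosen with earlier results of these data known. Libraries of 1 letter on both plates differed by more than counting noise in each pair (chi-square per degree of freedom at least 1.94). As it is not known whether molecular identifiers were collapsed, that value cannot tell whether the pairs came from 1 lysate. In their deviations from the group mean on each plate, same letters correlated at a mean of 0.065 in Tunicamycin and 0.038 in BrefA (4 pairs each). Other letters were at -0.022 and -0.013 (12 pairs each). Whether they came from 1 lysate is not said in the labels and was not tested. Depth limits the precision of genes with few counts. Promoters are RefSeq windows of GRCm38.p6. Python 3.11.15 and matplotlib 3.10.9 drew the figures.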

Additional observations from a re-analysis of the deposited data

Results flagged for a closer look

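In 246 groups of 8 libraries (each named gene and library measure in Tunicamycin and in BrefA), 22 held 1 library far from the nearest other one. Of these, 9 were Tunicamycin plate 2 well F. The cutoff flags about 1 in 20 groups of independent, normally distributed values. CPM were not logged and genes share libraries, so that rate need not hold here and no excess over chance is read from the count. Tunicamycin plate 2 well F was low for Iigp1 at 43.3 CPM (nearest 374) and Irgm2 at 19.2 CPM (nearest 139). Tunicamycin plate 2 well F was high for Pou2f2 at 538 CPM (nearest 254), Gdf15 at 52.9 CPM (nearest 21.5), Mylip at 168 CPM (nearest 91.5), Tnf at 1817 CPM (nearest 1331), Gclm at 346 CPM (nearest 166), Mafg at 130 CPM (nearest 92.6) and Fos at 269 CPM (nearest 37.2). BrefA plate 1 well E was high for Cp at 76 CPM (nearest 36.7) and Srp72 at 283 CPM (nearest 199). Tunicamycin plate 1 well E was high for Klf9 at 19.1 CPM (nearest 8.62) and Dnajb9 at 45.9 CPM (nearest 17.2). Tunicamycin plate 2 well H was high for Hsp90b1 at 660 CPM (nearest 471), the total count at 360197 (nearest 262276) and the number of genes detected at 9852 (nearest 9452). BrefA plate 1 well F was high for Hyou1 at 598 CPM (nearest 398). Tunicamycin plate 1 well F was high for Arfgap3 at 47.4 CPM (nearest 23.6). BrefA plate 2 well H was high for Rpl32 at 729 CPM (nearest 524), Ldha at 338 CPM (nearest 243) and Pfkp at 137 CPM (nearest 95.9). Tunicamycin plate 1 well H was high for Casp4 at 286 CPM (nearest 194). No explanation was tested.

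The gap between Tunicamycin and BrefA differed between the 2 plates for 210 genes with all libraries and for 186 without Tunicamycin plate 2 well F, by edgeR's quasi-likelihood test of the interaction.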

How the results depend on the processing

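Beside 493 genes higher in Tunicamycin than in BrefA, 282 were higher with the compared groups fitted alone, 237 on plate 2 alone and 273 on plate 2 without Tunicamycin well F. Beside 347 lower, these last 2 settings gave 136 and 142. Leaving out 1 well letter in every group gave 322 to 412 higher (322 without letter G) and 237 to 303 lower. Tunicamycin against DMSO called 217 genes, but 143 with no gene filter, 112 with the compared groups alone, 378 on plate 1 alone, 5 on plate 2 alone, 4 there without well F, 110 with same-named wells summed and 67 with these summed without Tunicamycin well F. Leaving out a letter gave 94 to 156, with 94 without H, 103 without G and 108 without F. BrefA against DMSO called 860, and 518 on plate 1 alone, 487 on plate 2 alone, 500 there in the fit without Tunicamycin well F and 649 to 731 without a letter. Libraries of the 2 compounds with the same plate and letter correlated at -0.011 to 0.127 in their deviations from the group mean (8 pairs, 1 over 0.1), so the letters were not taken as pairs. The replicate block gave 530 higher and 374 lower between the compounds, and 279 and 885 against DMSO for Tunicamycin and BrefA. DESeq2 gave 477 higher and 382 lower between the compounds and 296 for Tunicamycin against DMSO. Without Tunicamycin plate 2 F and plate 1 H and BrefA plate 2 H, 499 were higher and 401 lower between the compounds. Tunicamycin against DMSO then called 148 genes.

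Of 120 named genes and their 2376 values under the alternatives, 2181 kept direction and side of the threshold, 176 missed it with the same sign, 10 newly passed and 9 turned sign (log2, Tunicamycin over BrefA): Stt3a at 0.0041, Arf4 at 0.27, Arf1 at 0.399 on plate 1 alone; Gclm at 0.251, Cdkn1a at 0.0602 on plate 2 alone; Lamp1 at -0.0422, Rpl32 at -0.0803, Cdkn1a at 0.157, Fos at -0.46 on plate 2 alone without Tunicamycin well F. The cause was not tested. Plate 2 alone lost 43 of these genes' calls and plate 1 alone 17, with 4 libraries a group each.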

Other observations

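Marker lists of other cell types were at low levels beside the macrophage markers. Neutrophil markers summed to 15.3 to 71.3 CPM in Tunicamycin libraries and 21.1 to 53.4 CPM in BrefA libraries. B cell markers summed to 47.6 to 135 CPM in Tunicamycin libraries and 81.7 to 179.7 CPM in BrefA libraries. Dendritic cell markers summed to 135 to 305 CPM in Tunicamycin libraries and 89.1 to 208 CPM in BrefA libraries. Stromal and endothelial markers summed to 0 to 31.7 CPM in Tunicamycin libraries and 0 to 14.1 CPM in BrefA libraries. Of the dendritic cell list Bst2, which interferon also raises, was the 1 gene tested and was higher in Tunicamycin than in BrefA, by 0.99 ± 0.19 (adjusted p = 1.13e-05). Of the B cell list Blnk, an adaptor of receptor signalling also found in macrophages, was the 1 gene tested and was lower, at -0.64 ± 0.18 (adjusted p = 0.0064). These genes' part in the results was not tested. The mitochondrially encoded genes had no entry in the table used here.

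Cell cycle genes summed to 599 to 735 CPM in Tunicamycin libraries and 688 to 859 CPM in BrefA libraries. None of their 8 tested members passed edgeR's test between the compounds, with 1 at an unadjusted p under 0.05 and 0 past the threshold in DESeq2 (median log2 fold change -0.27).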
